A study of Mus musculus with 2 samples.

Results

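The transcripts described here are those that GENCODE M21 annotates as retained intron in genes that also have a protein-coding transcript, and whose mean expected count over both libraries was at least 50. An expected count is the estimated number of reads of a transcript. Of 103639 transcripts with a mouse Ensembl identifier in each deposited table, 14071 were annotated as retained intron in such a gene, and 3323 of these (23.6%) reached the minimum and are the members. They lay in 2230 genes. Another 8433 had a mean count above 0 and below 50, and 2315 were listed at 0 in both libraries. Members were chosen by their measured counts, so their levels are a description and carry no test. The minimum was reached in both libraries by 2820 members, and 9 members were listed at 0 counts in a library.

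Introns are normally removed from a transcript in the nucleus before it is exported. A retained-intron transcript is an annotated transcript that keeps sequence which other transcripts of the gene splice out. Such RNA is often held in the nucleus, where it may be spliced later, and when it is exported an in-frame stop codon inside the intron can send it to nonsense-mediated decay, the cytoplasmic pathway that removes messages with early stops. Genes for splicing factors and for the CLK kinases, which phosphorylate SR splicing proteins, are well known for keeping introns in a regulated way.

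The libraries hold total RNA from the thymus, the organ in which T cells mature, of mice of strain B6NCrl at postnatal day 0. Both lobes of each pup gave 1 library, and the pups, littermates from 1 pregnant female, form 1 group of 2 replicates with no treatment, mutation or transgene in the labels. Sex was not collected. No comparison between conditions is possible, and the spread between the libraries holds biological and technical differences together. Depth was 39046411 expected counts in replicate 1 and 41576822 in replicate 2. All 11 thymus markers (7 of thymocytes such as Lck and Rag1, 4 of cortical epithelium such as Foxn1 and Psmb11) were at 1 TPM or more in both libraries, between 18.4 and 1261 TPM, where TPM is an abundance scaled to transcript length and library total. In tissue RNA, fewer cells of a type and less RNA per cell cannot be told apart.

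The introns that members kept are shown for a few that carry the findings on level and reading frame. Sequences are from GENCODE M21 transcripts (GRCm38, mm10), 5′ to 3′ on the strand of the gene. Each is an intron between coding exons of a protein-coding transcript of the gene. Capitals mark the first and last 2 bases of the intron and the first stop codon in the reading frame of the upstream exon. That frame is the one of the protein-coding transcript, and whether a member is read in it was not tested. Rps20-201 and Hnrnpk-217 begin only a few bases upstream of their introns, so they hold little of that exon. The first 3 are introns of members that held most of their gene: Mrps26-201 (chr2:130564228-130564307, plus strand), Rps20-201 (chr4:3835292-3835483, minus strand) and Mrps24-201 (chr11:5707556-5707623, minus strand). The next 3 have a stop by base 49 and come from genes of RNA and ribosome processing: Krr1-201 (chr10:111977238-111977314, plus strand), Rpp21-205 (chr17:36257707-36257782, minus strand) and Tbl3-201 (chr17:24705318-24705396, minus strand). The last 2, added after values were seen, belong to abundant members: Ncl-202 (chr1:86352320-86352509, minus strand) and Hnrnpk-217 (chr13:58393775-58393852, minus strand).
Mrps26-201: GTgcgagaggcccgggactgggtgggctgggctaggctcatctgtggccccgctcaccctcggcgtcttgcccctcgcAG
Rps20-201: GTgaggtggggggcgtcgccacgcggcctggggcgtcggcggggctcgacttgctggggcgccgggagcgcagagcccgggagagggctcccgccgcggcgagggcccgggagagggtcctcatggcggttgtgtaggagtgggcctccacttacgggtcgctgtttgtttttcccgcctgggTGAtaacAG
Mrps24-201: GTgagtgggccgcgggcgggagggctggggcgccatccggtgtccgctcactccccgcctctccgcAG
Krr1-201: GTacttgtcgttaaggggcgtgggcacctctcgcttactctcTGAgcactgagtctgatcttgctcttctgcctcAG
Rpp21-205: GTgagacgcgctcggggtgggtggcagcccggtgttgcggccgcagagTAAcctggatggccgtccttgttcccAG
Tbl3-201: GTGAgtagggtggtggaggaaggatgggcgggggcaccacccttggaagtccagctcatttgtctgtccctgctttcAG
Ncl-202: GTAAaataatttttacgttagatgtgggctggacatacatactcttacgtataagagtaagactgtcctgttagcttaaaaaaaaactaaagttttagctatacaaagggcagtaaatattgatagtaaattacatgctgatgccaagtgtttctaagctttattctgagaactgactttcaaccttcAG
Hnrnpk-217: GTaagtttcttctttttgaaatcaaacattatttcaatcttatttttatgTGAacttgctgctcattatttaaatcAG

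Mrps26 and Mrps24 encode proteins of the small mitochondrial ribosomal subunit. Their kept introns of 80 and 68 bases held no in-frame stop. In Rps20, a protein of the small cytoplasmic ribosomal subunit, the intron was 192 bases long and its stop began at base 184. In Tbl3 and Ncl the stop began at base 2, so that it shares bases with the splice site itself. For a single intron, the kept percent is the TPM of transcripts that keep it over the TPM of those that keep it plus those that splice exactly it out. It was 95.7% and 95.9% for the Mrps26 intron, 94.3% and 94.1% for that of Rps20, and 91.6% and 91.6% for that of Ncl (nucleolin, a nucleolar protein of ribosome assembly), in replicates 1 and 2. The intron of Hnrnpk (33.0% and 36.5%), an RNA-binding hnRNP protein, was spliced in the larger part of the transcripts that cover it.

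As a class, the members were a small part of the transcriptome. They held 3.79% of all TPM in replicate 1 and 3.49% in replicate 2 (3.64% ± 0.215, SD, n = 2), and 2.91% and 2.49% of all expected counts. The median member had 3.79 and 2.88 TPM. Its IsoPct, the percent of the gene's TPM that the authors' estimate assigned to it, was 7.65% and 5.94% (6.79% ± 1.21, SD, n = 2), against a median of 24.3% for the 4481 protein-coding transcripts of the same genes at the same minimum. The middle 50% of members had a mean IsoPct between 2.85% and 15.6%. A mean IsoPct of 10% or more was reached by 1262 members, 25% by 490 and 50% by 125. The authors' posterior SD of a count was 9.18% of the count for the median member, against 7.66% for those protein-coding transcripts, and 2169 members had a deposited lower TPM bound of at least 1 in both libraries. Members were shorter than the protein-coding transcripts of their genes, with median lengths of 1723 and 2384 nt.

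Shares of a gene depend on the unit. TPM is per length, so a short member has a larger share by TPM than by counts. As a share of the expected counts of the gene, 1381 members were lower than their IsoPct by over 1.5 times and 545 higher. By counts 82 members reached 50% of their gene, 61 of them also by IsoPct. Shares below are of TPM, and the share of counts is added beside several members for which it differs by over 1.5 times.

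A few members held much of the class. The 10 with the highest mean TPM carried 17.5% of the members' summed TPM, 51 members reached 100 TPM and 616 reached 10 TPM. Ppia-203, of the gene for cyclophilin A, was the highest, at 1171 TPM in replicate 1 and 1389 in replicate 2. This was 18.7% and 19.6% of its gene by TPM and 8.17% and 8.63% by counts. Rps20-201 followed at 857 and 861 TPM, and its estimated 93.2% and 92.7% (by counts 68.4% and 67.4%) made it the main transcript of Rps20. It starts at base 3835488 of chromosome 4 and its kept intron at 3835483, on the minus strand, so few of its bases lie upstream of that intron. Other members among the highest came from the ribosomal protein genes Rps19 and Rps16. Atp5j-208 came from a subunit of ATP synthase (66.4% and 67.7% of its gene). Others came from the chromatin protein Hmgb1, from beta-globin (Hbb-bs-202) and from the SR splicing factor Srsf3 (Srsf3-205, 54.1% and 51.1%). While Rps20-201 contained 1 whole intron, Ppia-203, Atp5j-208, the Rps19 and Rps16 members and the higher Hmgb1 member contained none. The structures of Hbb-bs-202 and Srsf3-205 were not computed.

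**Figure D1:**
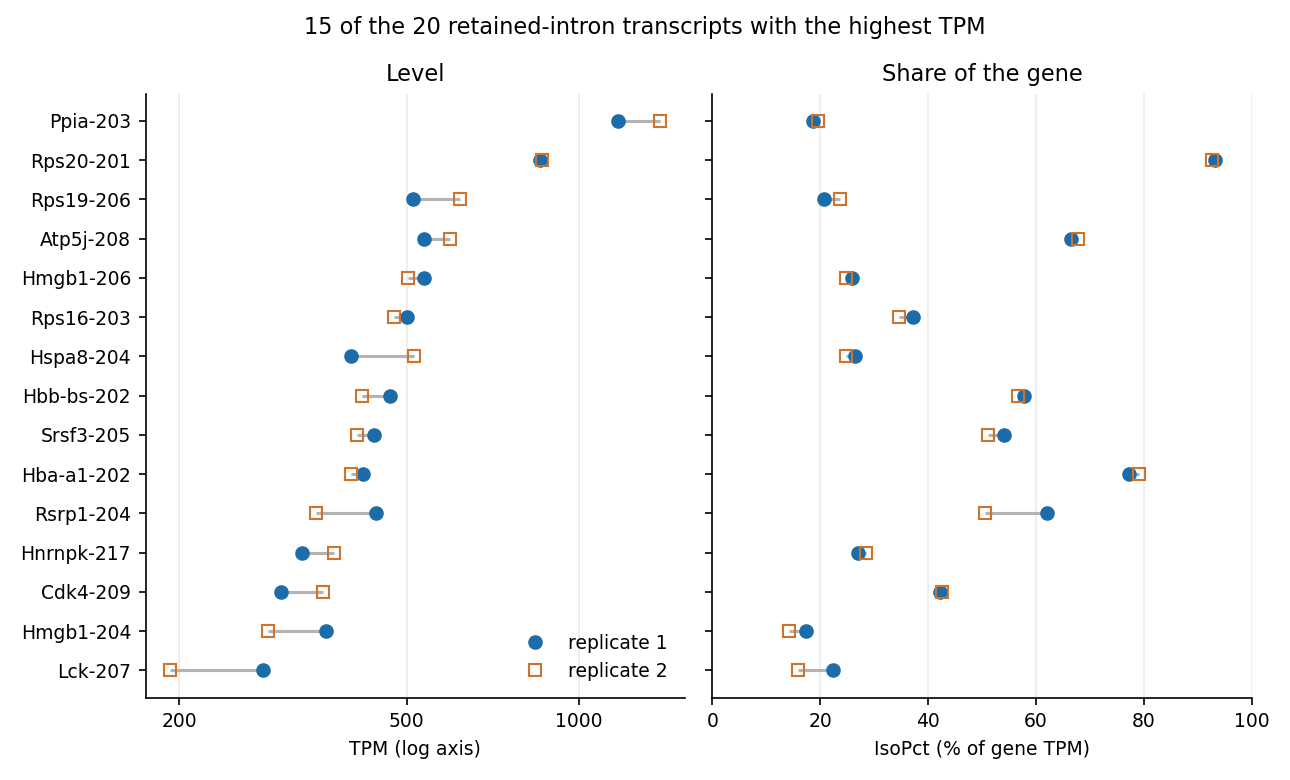
TPM (left, log axis) and IsoPct, the percent of the gene's TPM (right), of 15 of the 20 members with the highest mean TPM, all of genes named in the text, with filled circles for replicate 1 and open squares for replicate 2. Most pairs lie close together, while Rsrp1-204 was at 62.0% and 50.5% of its gene and Lck-207 at 22.3% and 15.8% (by counts 4.72% and 3.16%). Most members shown contained no whole intron, Ppia-203 and Lck-207 among them, while others such as Rps20-201, Rsrp1-204 and Hnrnpk-217 contained 1.

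Globin members were also among the highest. Hba-a1-202, from an alpha-globin gene, had 419 and 399 TPM, or 77.2% and 79.0% of its gene, and contained no whole intron. By counts, which rise with length, the leading members were those of RNA-processing genes. Rsrp1-204, of a gene for an arginine- and serine-rich protein, had 38463 and 32620 counts, the most of any member. Ncl-202 had 20121 and 22589, Srsf5-212 had 16364 and 18942, and Sf3b1-203, of a core subunit of the U2 particle that recognises the branch site, had 12754 and 13007. Each of these 4 members kept at least 1 whole intron, and Sf3b1-203 held 37.5% and 38.8% of its gene.

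Members made up the larger part of some genes. In 195 genes their summed IsoPct was 50% or more (103 genes by counts), in 618 it was under 5%, and the median gene had 11.7%. A member stood above every protein-coding transcript of its gene that reached 50 counts in 318 genes (362 members). Protein-coding transcripts below 50 counts were not compared. Only 2187 of the 2230 genes had one at that minimum, and members of the other genes are counted without a comparison. At a gene TPM of at least 10, P2rx1-203 (an ATP-gated ion channel) held 96.3% and 96.2%, Fbln2-206 (the matrix protein fibulin 2) 86.4% and 87.3%, Insr-202 (the insulin receptor) 84.9% and 86.9% (by counts 48.9% and 53.0%), and Tap2-202 (a subunit of the peptide transporter of antigen presentation) 84.9% and 85.4%. These shares are estimates over exons that members share with coding transcripts: only 7.70% of the bases of P2rx1-203, 4.78% of Fbln2-206 and 6.33% of Tap2-202 lay outside the exons of protein-coding transcripts. Carmil2-201 and Gm42742-201 were at 100% because the deposited table held no protein-coding transcript of their genes. Summed over members, Taf10, a subunit of general transcription factor TFIID, stood at 97.1%, Nmd3, an export adaptor of the large ribosomal subunit, at 94.4%, and Tsn, the nucleic acid-binding protein translin, at 91.2%.

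Most genes had a single member (1507 of 2230), and 237 had 3 or more. Nop56, Phip, Rbm5 and Tia1 had 7 members each. Nop56 is a core protein of box C/D snoRNA particles, and its members summed to 24.9% and 20.4% of the gene. Rbm5 and Tia1 encode splicing regulators, with sums of 27.7% and 18.2%, and 41.7% and 33.3%. Phip, of a bromodomain protein, was at 66.5% and 64.3%. Rbm39, a U2AF-related splicing factor, had 6 members that summed to 71.1% and 67.4%, and Uba7, the activating enzyme of the ISG15 modifier, had 6 at 70.6% and 66.1%. Among the 9 genes with 6 or more members, the sums of 4932438A13Rik (63.3% and 68.3%) and Hnrnpk (39.3% and 40.2%) were higher in replicate 2. Those of the other genes, which include Ptprc (28.7% and 20.5%), were higher in replicate 1.

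The annotation class was mixed in structure. Lengths of 3206 members equalled those of GENCODE M21, and their exons could be placed. Of these, 1391 contained at least 1 whole intron of a protein-coding transcript of the gene (942 of them exactly 1, 449 more than 1), and 1815 contained none. Among the 1815, the last base lay inside an intron for 1003, the first base for 611 and both for 155, so that these run into or out of an intron without crossing it, and neither end lay in an intron for 46. Whole-intron members were longer than the others (median 2413 against 1179 nt) and held less of their gene (median IsoPct 5.25% against 8.68%). Over all 3206, a median of 37.1% of bases lay outside the exons of protein-coding transcripts. Such bases are called intronic below, with any that lie beyond the outermost of these exons included. The most whole introns, 11, were in Dcaf11-207, of an adaptor of a ubiquitin ligase (0.820% and 0.680% of its gene). Dnase1-206 and Helz2-204 each kept 9, and Dnase1-206 held 59.4% and 76.3% of its low-level gene at 0.820 and 0.880 TPM.

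Kept introns were short. The 1944 different introns that members kept whole had a median length of 275 bases (middle 50% from 118 to 715), against 1254 bases (435 to 3030) for the 30991 other introns of protein-coding transcripts of the same genes. Introns of at most 100 bases made up 20.9% of kept and 6.14% of other introns, and those of at most 1000 bases 82.7% and 43.7%. The longest kept intron had 4690 bases. Short length was shared by the 2885 annotated retained introns found only in transcripts below the count minimum, whose median was 214 bases. An intron can count as kept only where the annotation holds a transcript across it, so the comparison describes the annotated class. Introns kept only in transcripts below the minimum are in neither set. A longer intron that contains a kept one, as where an exon is skipped, counts among the others. With introns of the highest protein-coding transcript of each gene only, the medians were 269 and 1127 bases.

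**Figure D2:**
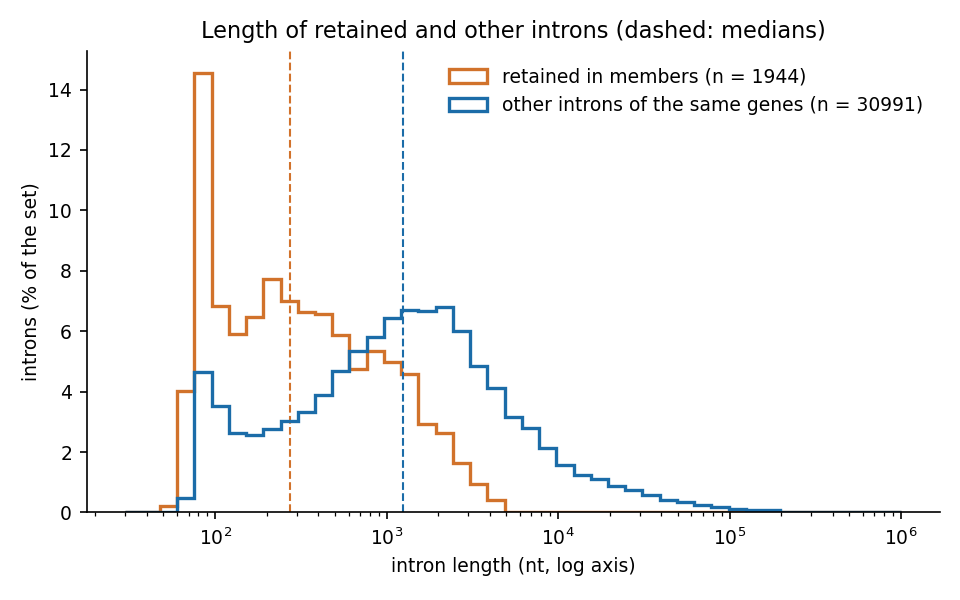
Percent of introns by length in nt (log axis) for the 1944 introns kept whole in members and the 30991 other introns of protein-coding transcripts of the same genes, with dashed lines at the medians of 275 and 1254. The kept introns peak just below 100 nt and none exceeds 4690 nt.

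The kept introns were typical in their splice sites. GT at the start and AG at the end were found in 1899 (97.7%), GC and AG in 27 (1.39%), and AT and AC in 4 (0.206%). GT and AG were found in 98.3% of the retained introns below the minimum. Median GC content was 50.7% for kept introns and 52.2% for those below the minimum, and it was 57.5% for kept introns of at most 100 bases and 43.3% for those above 1000 bases. Most kept introns were internal (1362), 200 were the first and 158 the last intron of the transcripts that splice them.

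A minor class of introns was among them. U12-type introns are removed by the minor spliceosome, slowly in many genes, and typically start with GTATCCTT or ATATCCTT. These letters, searched at the first base on the strand of the gene, began 13 kept introns (0.669%) in 12 genes, and 7 (0.243%) of the retained introns below the minimum. They are shown, in capitals with the bases that follow to base 20, for Derl2-205 (an endoplasmic reticulum protein, with 2 such introns at chr11:71014644-71015726 and chr11:71013639-71014549, minus strand) and the AT to AC introns of Tcea2-206 (chr2:181686247-181686597, plus strand) and Ift80-204 (chr3:68990964-68994500, minus strand). They were chosen after values were seen.
Derl2-205, upstream intron: GTATCCTTtattaaatagag
Derl2-205, downstream intron: GTATCCTTcaacaaatagca
Tcea2-206: ATATCCTTtgtacagggtat
Ift80-204: ATATCCTTtaaccctgtata
All of these members were minor transcripts by TPM. Derl2-205 had 4.47% and 2.84% of its gene, Ift80-204 3.44% and 2.62%, and Tcea2-206 11.5% and 13.0% (by counts 20.9% and 22.7%). The letters are a description of the intron starts and do not show which spliceosome acts on them.

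Most kept introns would interrupt the reading frame. Of the 1944, 1823 (93.8%) lay between coding bases, and 1635 of these (89.7%) held an in-frame stop, with a median start at base 36 of the intron. The share was 87.6% among the retained introns below the minimum. The 188 without a stop were short (median 89 bases), and 48 of them had a length divisible by 3, so that the frame continues downstream. The introns of Mrps26 and Mrps24 printed above have no stop but lengths of 80 and 68 bases, which shift the frame.

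Small nucleolar RNAs, which guide the modification of ribosomal RNA and are cut from introns, lay in 23 kept introns of 17 genes (1.18%). Among the 2885 retained introns below the minimum, 4 held one. The 2 sets are split by counts, and abundant genes reach the minimum more easily, so these numbers are a description only. The host genes, looked at after values were seen, were largely of ribosome and translation factors, among them Rpl3, Rpl10, Rpl12, Rpl13, Rpl27a, Rpl30, Rps2, Rps3 and Rps20, Eif4a1, Eif4a2, Rack1, Nop56 and Ppan, with the chaperone genes Hspa8 and Tcp1. Their kept percents were low. The Snora81 intron of Eif4a2 was at 4.14% and 3.65%, and the Snord57 intron of Nop56 at 1.79% and 0.925%. The highest was the intron of Rpl3 with Gm22077, at 15.4% and 16.3%. Rpl3-206, a member that keeps it, was at only 0.320% and 0.290% of its gene. The kept percent leaves out transcripts that neither keep nor splice exactly this intron. Reads from the small RNAs themselves cannot be separated in these tables, and their part in the counts was not tested.

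Over the 1897 introns with a measured transcript that splices them, the median kept percent was 10.2% in replicate 1 and 7.70% in replicate 2 (8.92% ± 1.74, SD, n = 2). In 246 introns it was 50% or more in both libraries. It was lower in replicate 2 for 1431 introns and higher for 428. Leaving out 70 introns that also lie inside an exon of a protein-coding transcript, the medians over 1827 introns were 9.73% and 7.27%.

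Members of the CLK kinase genes kept long introns. Clk1-204 and Clk4-213 each keep a long intron on both sides of a 91-base exon. The starts of these introns are given to base 40 because the paralogous genes resemble each other there; capitals mark the first 2 bases and a stop in frame, and the set was chosen after values were seen. For Clk1-204 the introns lie at chr1:58420212-58421082 (upstream, 871 bases) and chr1:58419734-58420120 (downstream, 387 bases) on the minus strand. Those of Clk4-213 lie at chr11:51272023-51273077 (upstream, 1055 bases) and chr11:51273169-51273559 (downstream, 391 bases) on the plus strand.
Clk1, upstream intron: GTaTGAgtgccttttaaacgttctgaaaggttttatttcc
Clk4, upstream intron: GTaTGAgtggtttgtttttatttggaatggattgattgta
Clk1, downstream intron: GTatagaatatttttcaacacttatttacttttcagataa
Clk4, downstream intron: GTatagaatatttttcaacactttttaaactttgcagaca
Clk1 and Clk4 share the first 9 bases of the upstream intron and the first 23 of the downstream intron, and 24 and 30 of the first 40 bases are identical. In both upstream introns a stop begins at base 4. The upstream intron was kept in 65.0% of the covering TPM in replicate 1 and 48.8% in replicate 2 for Clk1, and in 53.4% and 49.9% for Clk4. Clk1-204 itself stood at 46.3 and 46.0 TPM (21.7% and 23.1% of its gene, by counts 41.2% and 40.8%) and Clk4-213 at 11.6 and 12.6 TPM. Levels of both members were close in the libraries, unlike that of Clk1-205, a member that keeps no whole intron, which had 22.7 and 9.35 TPM.

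Which functions hold members was described over 20 gene lists with 498 different genes, of which 199 held 384 members. The reference is the 5206 genes with a protein-coding and an annotated retained-intron transcript and at least 50 gene counts. Of these 42.8% held a member, and of the 3573 with a gene TPM of at least 10, 55.6% did. Abundant genes reach the count minimum more easily, and most lists hold abundant genes. The median gene TPM was 22.1 over all genes, 193 in SR proteins and 975 in ribosomal proteins, and lower than over all genes in V(D)J recombination (19.1), apoptosis regulators (16.0) and thymic epithelium (7.78). The shares below are therefore read only beside these values. Each is over the genes of a list that have an annotated retained-intron transcript.

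**Figure D3:**
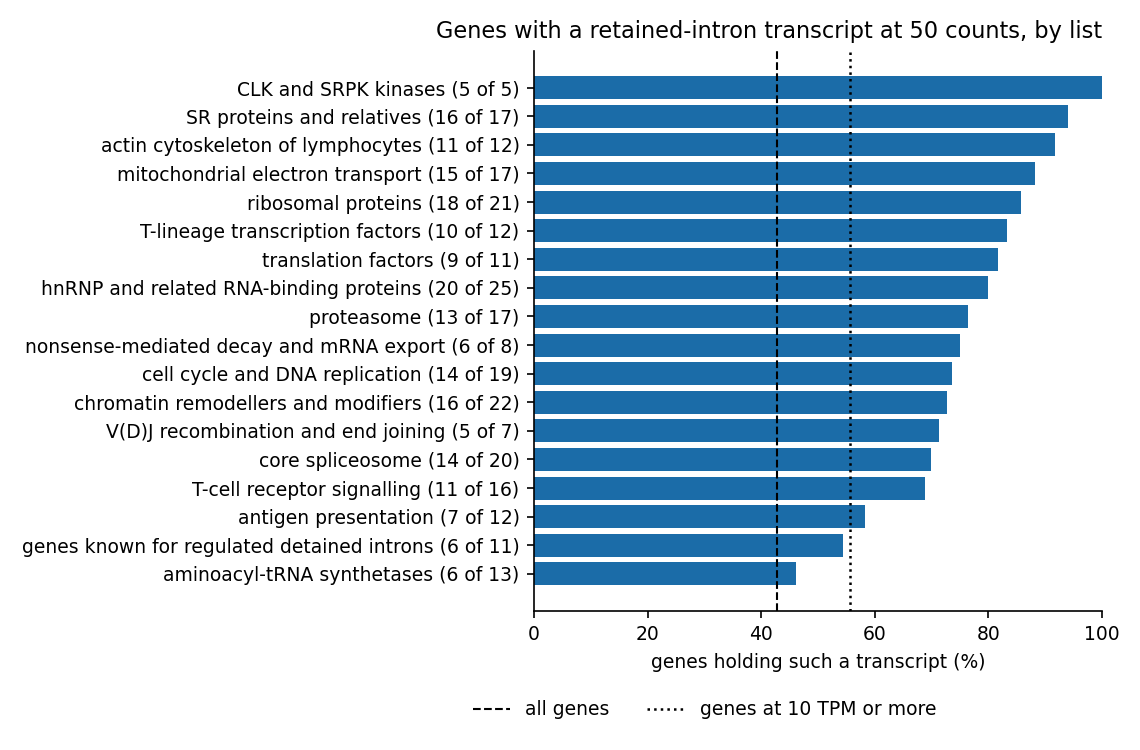
Percent of genes holding a member among those with an annotated retained-intron transcript, for the 18 lists with 5 or more such genes (numbers in brackets). The dashed and dotted lines mark 42.8% for all genes and 55.6% for genes at 10 TPM or more, and every bar lies above the dashed line.

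RNA-processing genes held many members. In the SR proteins and relatives, which bind exons and recruit the spliceosome, 16 of 17 genes with an annotated retained-intron transcript held 27 members. Srsf3-205 (438 and 409 TPM) and Rsrp1-204 (442 and 347 TPM) were above 50% of the TPM of their genes in both libraries, but by counts Srsf3-205 had only 28.9% and 26.7%. Srsf2-203 had 64.6 and 67.3 TPM but only 9.13% and 9.43% of its gene, and Luc7l-204, of a U1-associated factor, 20.9 and 13.3 TPM (29.4% and 18.8%). All 5 CLK and SRPK kinase genes with such a transcript held members, 12 in all. Srpk1-206 was at 23.1% in replicate 1 and 34.5% in replicate 2 (by counts 5.94% and 10.0%).

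Of hnRNP and related RNA-binding protein genes, 20 of 25 held 57 members. Hnrnpl-210 stood at 126 and 101 TPM (42.8% and 43.0%, by counts 18.8% and 18.6%) and, with its other 4 members, made up 52.2% of the TPM of Hnrnpl. Rbm39-205 had 243 and 206 TPM. In the core spliceosome, 14 of 20 genes held 21 members, led by Sf3b1-203 at 131 and 124 TPM, with Snrpd3-202, of an Sm ring protein, at 36.1% and 30.3% of its gene (by counts 9.83% and 7.75%). For nonsense-mediated decay and mRNA export it was 6 of 8 genes, and Alyref-203, of an export adaptor, had 174 and 175 TPM (36.1% and 37.1%). In the list of genes known for regulated detained introns 6 of 11 held 23 members, near the reference share for genes at 10 TPM or more. Ccnl2-205 (cyclin L2) was at 31.6% and 31.4% of its gene (by counts 48.3% and 46.6%) and Ogt-204, of the O-GlcNAc transferase, at 16.6% in both libraries.

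T-lineage genes held members as well, at a median of 13.6% of gene TPM in T-cell receptor signalling and 5.83% in T-lineage transcription factors. For T-cell receptor signalling, 11 of 16 genes held 20 members. Lck-207 (281 and 193 TPM) came from the kinase that starts the signal, and Ptprc-208 (40.2 and 26.0 TPM, 11.1% and 7.76%) from the phosphatase CD45. Cd6-201, of a surface receptor that tunes the signal, stood at 25.5 TPM in both libraries, 22.7% and 22.3% of Cd6. T-lineage transcription factors held 16 members in 10 of 12 genes, and in Satb1, a chromatin organiser of thymocytes, Satb1-205 had 42.3 and 36.5 TPM but 5.75% and 6.09% of the gene (by counts 0.878% and 0.932%). In V(D)J recombination and end joining 5 of 7 genes held 8 members, among them Prkdc-202 (the DNA-dependent kinase, 50.1% and 50.3% of its gene at 3.23 and 3.34 TPM) and Atm-204 (41.4% and 47.7% at 4.19 and 3.93 TPM). By counts these shares were 19.2% and 19.3%, and 14.7% and 16.7%.

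Most housekeeping lists also held members in over 50% of their genes with an annotated retained-intron transcript, though aminoacyl-tRNA synthetases did not. Ribosomal proteins held 41 in 18 of 21 genes, at a median of 2.42% of gene TPM, so that Rps20-201 and Rps16-203 (37.2% and 34.5%) stood far above the usual member of that list. Mitochondrial electron transport genes held 28 in 15 of 17, at a median of 2.72%. In the proteasome 13 of 17 genes held 23 members, with Psma3-203 at 199 and 202 TPM (37.6% and 35.9%) and Psmb4-202 at 174 and 161 TPM (44.5% and 42.1%). Translation factors held 19 members in 9 of 11 genes and the actin cytoskeleton 24 in 11 of 12. Cell cycle and DNA replication genes held 28 in 14 of 19: Cdk4-209 had 302 and 357 TPM (42.1% and 42.6%, by counts 20.2% and 20.3%) and Tyms-202, of thymidylate synthase, 82.1 and 92.7 TPM (38.9% and 41.0%). Chromatin remodellers held 21 in 16 of 22 genes, with Smarca5-202 at 52.3% and 50.7%. Antigen presentation genes held 12 in 7 of 12 and aminoacyl-tRNA synthetases 10 in 6 of 13. No member was found in the 3 apoptosis regulators or the 1 thymic epithelial gene with an annotated retained-intron transcript.

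The libraries differed in the members as a class. The log2 ratio of replicate 2 over replicate 1, of counts scaled by edgeR's TMM method, had a median of -0.34 over the members (middle 50% from -0.74 to -0.00), and 2502 of 3323 (75.3%) were below 0. Over 2-fold lower in replicate 2 were 480 members (14.4%), against 5.30% of all 27089 transcripts at 50 counts, and over 2-fold higher 39 (1.17%), against 2.84%. Scaled by spike-in totals in place of TMM, the direction of these counts turned, with 53 lower and 313 higher. That scaling adds the same 0.70 to every log2 ratio, so the members' median stays below that of protein-coding transcripts of the same genes. Shares of all transcripts under it were not computed. With TMM, the median was -0.02 over all transcripts and 0.03 over protein-coding transcripts of the same genes. Of the latter, 3.50% were lower and 3.84% higher. With 1 library per pup no test was possible, and the ratio compares these libraries only. Past 1.5-fold, 1135 members were lower and 115 higher, against 12.8% and 6.37% of all transcripts. The deposited TPM intervals, whose level is not given and which cover counting and assignment error only, did not overlap for 906 members that were higher in replicate 1 (27.3%, against 13.2% of all transcripts) and for 25 that were higher in replicate 2 (0.752%, against 6.53%). For protein-coding transcripts of the same genes these shares were 8.77% and 8.39%.

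**Figure D4:**
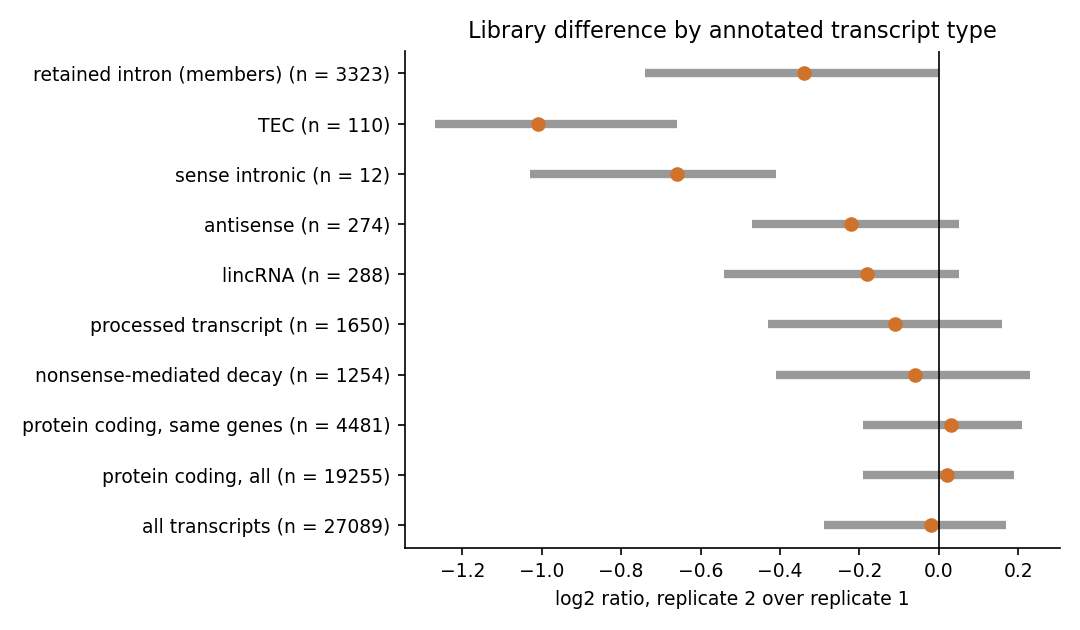
Log2 ratio of replicate 2 over replicate 1 by annotated transcript type, for transcripts at 50 counts or more, with points at the median and bars over the middle 50% of transcripts. The members (median -0.34) lie between the protein-coding transcripts of the same genes (0.03) and the TEC class of unspliced candidate genes (-1.01).

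The difference was also seen within genes. In 2187 genes with both kinds of transcript at the minimum, the median difference between the members' ratio and the protein-coding ratio was -0.38, and the members' ratio was the lower in 1720 genes (78.6%). IsoPct was higher in replicate 1 for 2439 members, higher in replicate 2 for 869 and equal for 15, with a median difference (replicate 2 minus replicate 1) of -0.87 percentage points against 0.68 for protein-coding transcripts of the same genes. A difference of 5 points or more toward replicate 1 was seen for 398 members (12%), near the 10.9% of all transcripts, and toward replicate 2 for 136 (4.09%), against 13.8%. Among other noncoding classes the median ratio was -1.01 for 110 TEC transcripts, -0.66 for 12 sense intronic transcripts, -0.22 for antisense and -0.18 for lincRNA transcripts. It was -0.11 for processed transcripts and 0.06 for 271 processed pseudogenes, of which 40.6% were below 0. The nuclear RNA Malat1 had 3907 and 1892 TPM. Spike-in counts were 659 and 427, and scaling by them moved all log2 ratios by 0.70, to a median of 0.36 over the members. The part of RNA input, nuclear RNA or unspliced RNA in the members' difference was not tested.

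The difference was smaller at higher counts. Between 50 and 100 counts the median ratio was -0.47, between 200 and 500 counts -0.27, and at 2000 counts or more -0.04 (73 members). Protein-coding transcripts of the same genes had -0.07, -0.02 and 0.06 at these counts. The 2820 members at 50 counts or more in each library had a median of -0.27, with 261 lower and 10 higher. Among abundant members, Rps20-201 (0.04), Ncl-202 (0.09), Sf3b1-203 (-0.05) and Psma3-203 (0.05) were close to 0, and Rsrp1-204 was at -0.31.

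The difference also followed how much of a member was intronic. Ordered by the percent of bases outside protein-coding exons into 5 groups of 641 or 642 members, the median log2 ratio was -0.09 in the least intronic group (0 to 13.6% of bases), -0.16, -0.31 and -0.46 in the next, and -0.73 in the most intronic (69.8 to 100%). The share over 2-fold lower in replicate 2 ran from 5.61% to 30.4%, and of the members over 2-fold higher, 26 were in the first group, 11 in the second and 1 in the third. Members at 200 counts or more ran from -0.06 to -0.64 and whole-intron members from -0.17 to -0.61, though not lower at every step. Across the 3206 members Spearman's rho was -0.41 and Pearson's r -0.30 between intronic percent and log2 ratio. Members are not independent, since they share libraries and often genes, and the median count fell from 164 in the first group to 106 in the last.

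**Figure D5:**
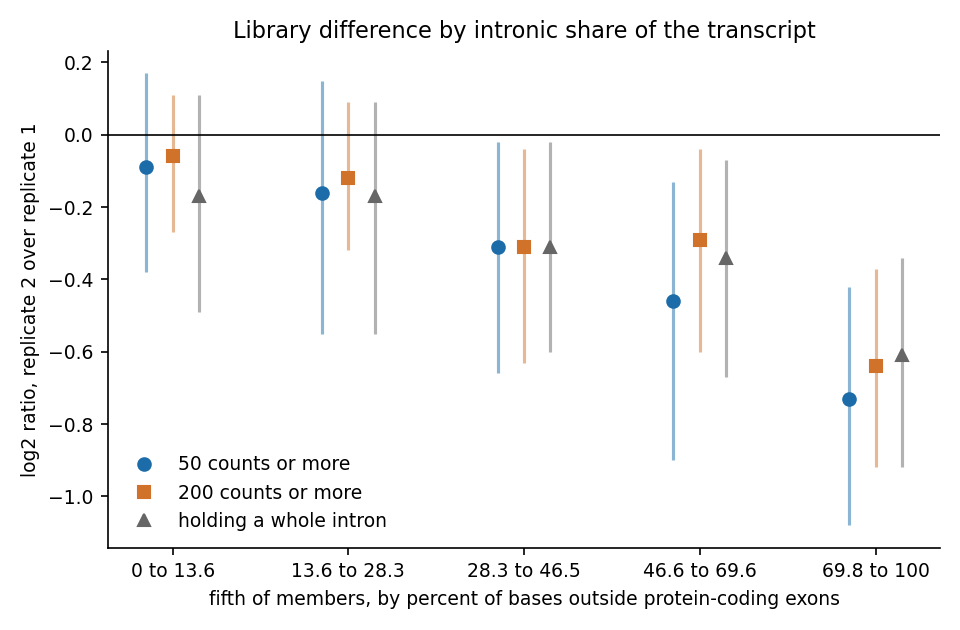
Median log2 ratio of replicate 2 over replicate 1 (bars: middle 50% of members) in 5 groups ordered by the percent of bases outside protein-coding exons, for all members with a placed structure, those at 200 counts or more and those holding a whole intron. The median for all members goes from -0.09 in the least intronic group to -0.73 in the most intronic.

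By function, T-lineage transcription factors and T-cell receptor signalling had the lowest medians. V(D)J recombination and end joining had -0.06, near translation factors (-0.05) and the cell cycle (-0.04). Of its members 0 of 8 were over 2-fold lower, too few to set against the share of all members. Of 16 members in T-lineage transcription factor genes 15 were below 0, with a median log2 ratio of -0.80, and 5 were over 2-fold lower. Lef1-206 had 15.7 and 7.45 TPM (6.62% and 2.89% of its gene), Tcf12-212 12.6 and 5.21 TPM, and Notch1-205, of the receptor that commits progenitors to the T lineage, 2.80 and 1.07 TPM. These members were largely intronic (89.1%, 68.8% and 90.2% of bases), as was the list (median 76.7%). The exception, Myb-202, had 1.11 TPM in both libraries. In T-cell receptor signalling the median was -0.73, 17 of 20 were below 0 and 7 were over 2-fold lower. These counts stand beside 14.4% of all members, 30.4% of the most intronic group and 5.30% of all transcripts. Zap70-203, of the kinase that binds the phosphorylated receptor, had 5.48 and 1.24 TPM, Rasgrp1-202, a Ras activator, 16.2 and 5.95 TPM, and Cd4-202 14.9 and 5.85 TPM. The genes as a whole were close, with 83.8 and 84.4 TPM for Cd4 and 102 and 98.0 for Zap70.

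Other lists lay nearer to the median of all members, of which 14.4% were over 2-fold lower, against 5.30% of all transcripts. The median was -0.43 for chromatin remodellers (5 of 21 lower), -0.34 for SR proteins (1 of 27 lower), -0.30 for hnRNP genes (14 of 57 lower), -0.22 for ribosomal proteins (1 of 41 lower), -0.04 for the cell cycle (1 lower and 2 higher of 28) and 0.04 for antigen presentation (1 of 12 lower). In the hnRNP list Hnrnpk-217 had 328 and 373 TPM. The lists differ in intronic share, with medians of 54.8% for T-cell receptor signalling, 45.6% for SR proteins and 20.0% for translation factors, whose median ratio was -0.05. The list ratios did not follow this share throughout. Genes known for regulated detained introns had a median share of 50.8% and a median ratio of 0.03, with 11 of 23 members below 0. Aminoacyl-tRNA synthetases had a share of only 12.3% and a median ratio of -0.35. With spike-in scaling each ratio is 0.70 higher, which puts the median of every list named here above 0 except those of T-lineage transcription factors and T-cell receptor signalling. A test of one list against another was not made.

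Single members with the largest differences were mostly of low level. With the mean count set to 100 or more, 13 of the 15 lowest ratios had TPM intervals that did not overlap, but only 1 of the 15 highest did. Over all transcripts, not chosen for their ratio, the shares were 13.2% and 6.53%. Polg-203 (the mitochondrial DNA polymerase) had 501 and 48.0 counts, Slc25a3-204 (the mitochondrial phosphate carrier) 1018 and 345, and Cep89-202 164 and 42.8. Trappc11-204 had 203 counts in replicate 1 and was listed at 0 in replicate 2, but its TPM intervals (0.671 to 2.50, and up to 0.856) overlapped. In the other direction Thoc3-202, of a subunit of the THO export complex, had 52.5 and 219 counts, or 6.85% and 25.6% of its gene (by counts 6.57% in replicate 2), with intervals apart. Ahcyl2-215 had 1.62 and 341 counts, and its intervals overlapped as well.

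In genes with a mean TPM of at least 10, the largest differences in IsoPct toward replicate 1 were those of Vps50-208 (35.7% and 12.8%), Thap3-203 (39.3% and 18.1%) and Tnik-208 (59.7% and 39.9%). By counts all 3 had lower shares, at 38.8% and 22.2% for Tnik-208. Tnik encodes a kinase of Wnt signalling, and 77.9% of the bases of Tnik-208 were intronic. Intervals were apart for 9 of the 10 largest differences toward replicate 1 and for 3 of the 10 largest toward replicate 2, which were those of Thoc3-202, Elp5-210 (3.34% and 16.3%) and Srpk1-206. In genes below 10 TPM, Ahcyl2-215 (0.110% and 23.5%) and Pced1a-207 (14.2% and 34.4%) differed by more than Thoc3-202, with overlapping intervals.

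At the threshold, members just inside and transcripts just outside the minimum had like values. Creb1-211 (55.0 and 45.0 counts), Rmc1-205 (48.8 and 51.2), BC004004-205 (75.2 and 24.8), Chaf1b-204 (59.3 and 40.8) and Mfsd11-205 (51.9 and 48.2) were just inside. Just outside were Coro1b-209 (32.2 and 67.7), Sin3a-205 (56.5 and 43.4), Klhdc8b-209 (54.4 and 45.4), Agbl3-207 (52.3 and 47.5) and Lins1-204 (49.8 in replicate 2).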

How the data were processed

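Total RNA of the thymus of 2 newborn littermates was sequenced, 1 library per pup. Per the labels' protocols, a mirVana kit was used for extraction, spike-ins were added and the RNA input was low. Per the file headers, the authors deposited expected counts (estimated, not normalized), TPM, the percent of gene TPM per transcript (IsoPct), and the posterior mean and SD of counts. The bounds of a TPM interval were also deposited by the authors and are treated as a signal in TPM. The build is mm10 per the labels and the annotation M4 per the deposited read-me texts. Which aligner and quantifier were run, and whether strand was used, is not given in the sources used here. Reads of overlapping antisense genes could therefore not be told apart.

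Transcript types, exons and sequences are from GENCODE M21, by identifier without version, which matched 101510 of 103639 transcripts. Introns of at least 30 nt of protein-coding transcripts were called kept where they lay wholly inside an exon of a member. Where such an intron contained another, only the inner one was counted as kept. Structures were computed for 3206 members of unchanged length, and 117 others, Srsf3-205 and Hbb-bs-202 among them, were left out. GC content was compared with annotated retained introns below the minimum instead of with other introns of the genes, because no genome sequence was used here. Log2 ratios are replicate 2 over replicate 1 of counts scaled by edgeR (4.0.16) TMM library sizes over 17258 genes, with a prior count of 0.5, called over 2-fold. Values are given as mean ± SD where n = 2 is stated. Depth was 39046411 and 41576822 counts. Only the log2 ratio step was tested on simulated counts, which held no error from assigning reads among transcripts. Intron placement and reading frame were tested on small made-up examples. Python 3.11.15 with pandas 2.3.3, numpy 2.4.6 and matplotlib 3.10.9, and R 4.3.3 with DESeq2 1.42.0 size factors as an alternative, were used.

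The members and the lists were chosen with earlier results of these data known. The text may name the 20 members highest by TPM, the 20 highest by IsoPct in genes of at least 10 TPM, the 15 highest by counts, the 15 largest log2 ratios each way at 100 counts or more, the 10 largest IsoPct differences each way, members of the lists, genes with 3 or more members and the 5 nearest each side of the minimum. Sequences were to be those of up to 12 members with the highest IsoPct and exactly 1 kept intron of 60 to 300 bases between coding bases. The introns of Ncl, Hnrnpk, Clk1 and Clk4, the intron starts of the U12 type, snoRNA hosts, the members with the most introns, and genes whose members hold 50% or more go beyond this rule and were picked once values were known. Some transcripts and sequences that these rules cover are not reported here. The alternatives varied the minimum, the unit, the scaling, the prior count, the fold and the introns compared, and left out each library.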

Additional observations from a re-analysis of the deposited data

Results flagged for a closer look

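A retained-intron signal lay outside the main measurement, in genes without a protein-coding transcript, which the rule leaves out. Of 214 such transcripts, 60 had a mean expected count of at least 50, with 15215 counts in replicate 1 and 14200 in replicate 2. Gm4258-202 had 109 and 69.0 TPM, and Gas5-213, of a snoRNA host gene, 40.7 and 54.4 TPM. Their median log2 ratio was -0.22, with 40 of 60 below 0.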

How the results depend on the processing

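Every statement on the library difference rests on 2 libraries of 1 group, and members near the minimum rest on about 50 counts. At a minimum of 10 counts there were 7143 members in 3785 genes, with a median IsoPct of 3.83% and 4.03% of TPM. At a minimum of 500 there were 404 in 351 genes, with 22.4% and 2.31%, 67 list genes, 20 members lower and 0 higher in replicate 2, other introns of 1157 bases, and GC of 48.6% for kept introns and 51.8% below the minimum. By counts in place of TPM, the median share of the gene was 4.90% and the share of the library 2.70%. Spike-in scaling, which moves the log2 ratio of every transcript by 0.70, gave 53 lower and 313 higher and reversed the members' median to 0.36. A 1.5-fold threshold gave 1135 and 115. Of alternatives added after seeing the data, members with a whole intron gave 144 and 10, 50 counts in each library 261 and 10, and a minimum of 200 gave 72 and 0. With introns of the highest protein-coding transcript only, other introns had a median of 1127 bases and kept introns a GC of 51.2%, and with members of a single kept intron the values were 925 bases and 51.8% GC below the minimum. The cause was not tested beyond the fewer transcripts or introns these settings hold. Leaving out a library gave 2996 to 3594 members, 2071 to 2364 genes, an IsoPct of 6.67% to 7.25%, 3.46% to 3.84% of TPM, kept introns of 260 to 280 bases (260 without replicate 1), other introns of 1205 to 1279 bases, GC of 50.6% to 51.1% and 52.0% to 52.4%, and 194 to 206 list genes. DESeq2 size factors, a TPM ratio and a prior count of 5 kept the direction of the members' median. Among 200 alternative ratios of named members, 0 changed the sign of a value called over 2-fold. The largest change of scaling, 0.70 with spike-in totals, was too small to turn such a value. Values that were not called could change sign, as for Lck-207, which went from -0.51 to 0.20 with spike-in totals. No paired analysis was possible because there is 1 group.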
